A study of Mus musculus with 12 samples.

Results

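The LKB1 complex, AMPK and SIK kinases were followed through 10 genes, taken by symbol from the tables of 34678 symbols. They are Stk11, Strada and Cab39, which encode the LKB1 complex, Prkaa1, Prkaa2 and Prkab1, which encode AMPK subunits, and the AMPK-related kinase genes Sik1, Sik2, Sik3 and Nuak1. All 10 symbols were found. Of these, 9 had a mean of at least 0.1 FPKM over the tumors and entered the tests, and Prkaa2 did not.

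RNA was sequenced from 12 subcutaneous tumors of LLC1-shLkb1 cells, a Lewis lung carcinoma line in which Lkb1, the gene with the symbol Stk11, was knocked down by a short hairpin RNA. The host mice were C57BL/6 animals of both sexes, 5 to 8 weeks old, and the labels do not give the sex of the mouse behind each tumor. Vehicle (control immunoglobulin), palbociclib (an inhibitor of the cell cycle kinases CDK4 and CDK6), anti-PD-1 antibody (which blocks a receptor that restrains T cells) or the combination was given to 3 tumors each, with collection 2 weeks into treatment. All 4 arms carried the same knockdown, and no tumor of unmodified LLC1 cells belongs to the series.

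LKB1 is a master kinase that is active when it binds the pseudokinase STRADα and the scaffold MO25α, the products of Strada and Cab39. It phosphorylates the activation loop of AMPK, an energy sensor built from a catalytic α, a scaffolding β and a nucleotide-binding γ subunit, and of a family of AMPK-related kinases that includes the SIK and NUAK kinases. SIK kinases hold the CRTC coactivators and class IIa histone deacetylases in the cytoplasm, and so restrain genes driven by the transcription factor CREB. LKB1 is often lost in lung adenocarcinoma.

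The promoters of these genes were searched for the CREB response element, TGACGTCA, and its half-site, TGACG on either strand, in the 250 bases upstream of the RefSeq start site (GRCm38.p6). The full element contains the half-site on both strands. Promoters were found for 9 of the 10 genes, all but Sik1. None of the 9 held the full element, which 1.77% of the promoters of 27025 symbols held. The half-site was in 3 of 9 (33.3%), those of Stk11, Prkaa2 and Sik3, against 19.8% of all promoters. Among the CREB-CRTC target genes, 9 of 10 promoters (90%) held the half-site and 1 held the full element, that of Dusp1. Matches of these letters describe the sequence and do not show that a factor binds there. The stretches below are shown because Stk11 is the gene knocked down, Sik3 is the SIK gene with the most FPKM on average, and Dusp1 and Flcn are the 2 genes of the pathway lists with the full element. Capitals mark the half-site in the first 2 and the full element in the others, all written 5′ to 3′ on the strand of the gene.
Stk11, chr10:80115545-80115794, plus strand: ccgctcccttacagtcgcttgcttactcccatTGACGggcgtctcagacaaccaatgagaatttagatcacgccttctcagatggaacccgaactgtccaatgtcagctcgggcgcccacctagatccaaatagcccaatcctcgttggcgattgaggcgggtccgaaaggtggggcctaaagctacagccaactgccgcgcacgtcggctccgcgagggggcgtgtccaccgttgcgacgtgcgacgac
Sik3, chr9:46012667-46012787, plus strand: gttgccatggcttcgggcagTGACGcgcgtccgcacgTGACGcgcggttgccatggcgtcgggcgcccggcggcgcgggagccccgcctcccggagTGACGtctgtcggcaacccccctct
Dusp1, chr17:26508588-26508635, minus strand: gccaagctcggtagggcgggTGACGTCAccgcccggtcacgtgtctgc
Flcn, chr11:59810061-59810108, minus strand: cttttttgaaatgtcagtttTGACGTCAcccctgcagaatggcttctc
The half-site lies 218 bases upstream of the Stk11 start site and 133, 116 and 57 bases upstream of that of Sik3. The full element lies 143 bases upstream of the Dusp1 start site and 49 bases upstream of that of Flcn.

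Values are FPKM, fragments scaled to transcript length and to the mapped fragments of the library, as deposited. From the steps between low values, each library was estimated to hold 14900000 to 20300000 fragments, with a median of 16200000. Of the low genes, 83.8% had only values that were whole fragments within 0.05. The depth most common among the 2756 of these with a known length was taken, and 46% of them lay near it. Some tumors held host tissue: summed FPKM reached 853 for adipocyte markers in combination 1 and 349 in palbociclib 1, 191 for skeletal muscle markers in palbociclib 3, and 369 for skin keratinocyte markers in palbociclib 2. In a list of 7 lung adenocarcinoma markers, 2 (Nkx2-1 and Sftpc) were listed at 0 in every tumor. The summed level of the list ranged from 75.1 to 284 FPKM and came mostly from Krt8, at 62.0 to 276 FPKM. In bulk tumors, fewer cells of a type and less RNA per cell cannot be told apart. The labels number the tumors but do not state that each came from its own mouse, so p-values measure the spread between these tumors.

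No member was called in any of 8 comparisons between arms by limma, a linear model fitted across all 15350 genes on log2(FPKM + 0.1), at a Benjamini-Hochberg adjusted p of 0.05. The 2 members with the smallest p values were Sik1, whose mean was lower with palbociclib, and Prkab1, whose mean was higher. The palbociclib effect, the mean of palbociclib minus vehicle and of combination minus anti-PD-1, uses all 12 tumors. In it 48 of 15350 genes (0.313%) were called, 38 higher (0.248%) and 10 lower (0.0651%), and 0 of 9 members. At an unadjusted p under 0.05 the members numbered 2 of 9, 1 in each direction, against 20.5% of all genes, so their count stood near the background. The share called was 0.143% of genes for palbociclib against vehicle, 0.013% for the combination against vehicle, and 0.00651% for the combination against palbociclib and likewise against anti-PD-1. It was 0% for anti-PD-1 against vehicle, for the anti-PD-1 effect and for the interaction, in which 1289 (8.4%), 1039 (6.77%) and 879 (5.73%) genes had an unadjusted p under 0.05 by limma. Comparisons against one arm share its tumors and are not independent of each other.

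**Figure D1:**
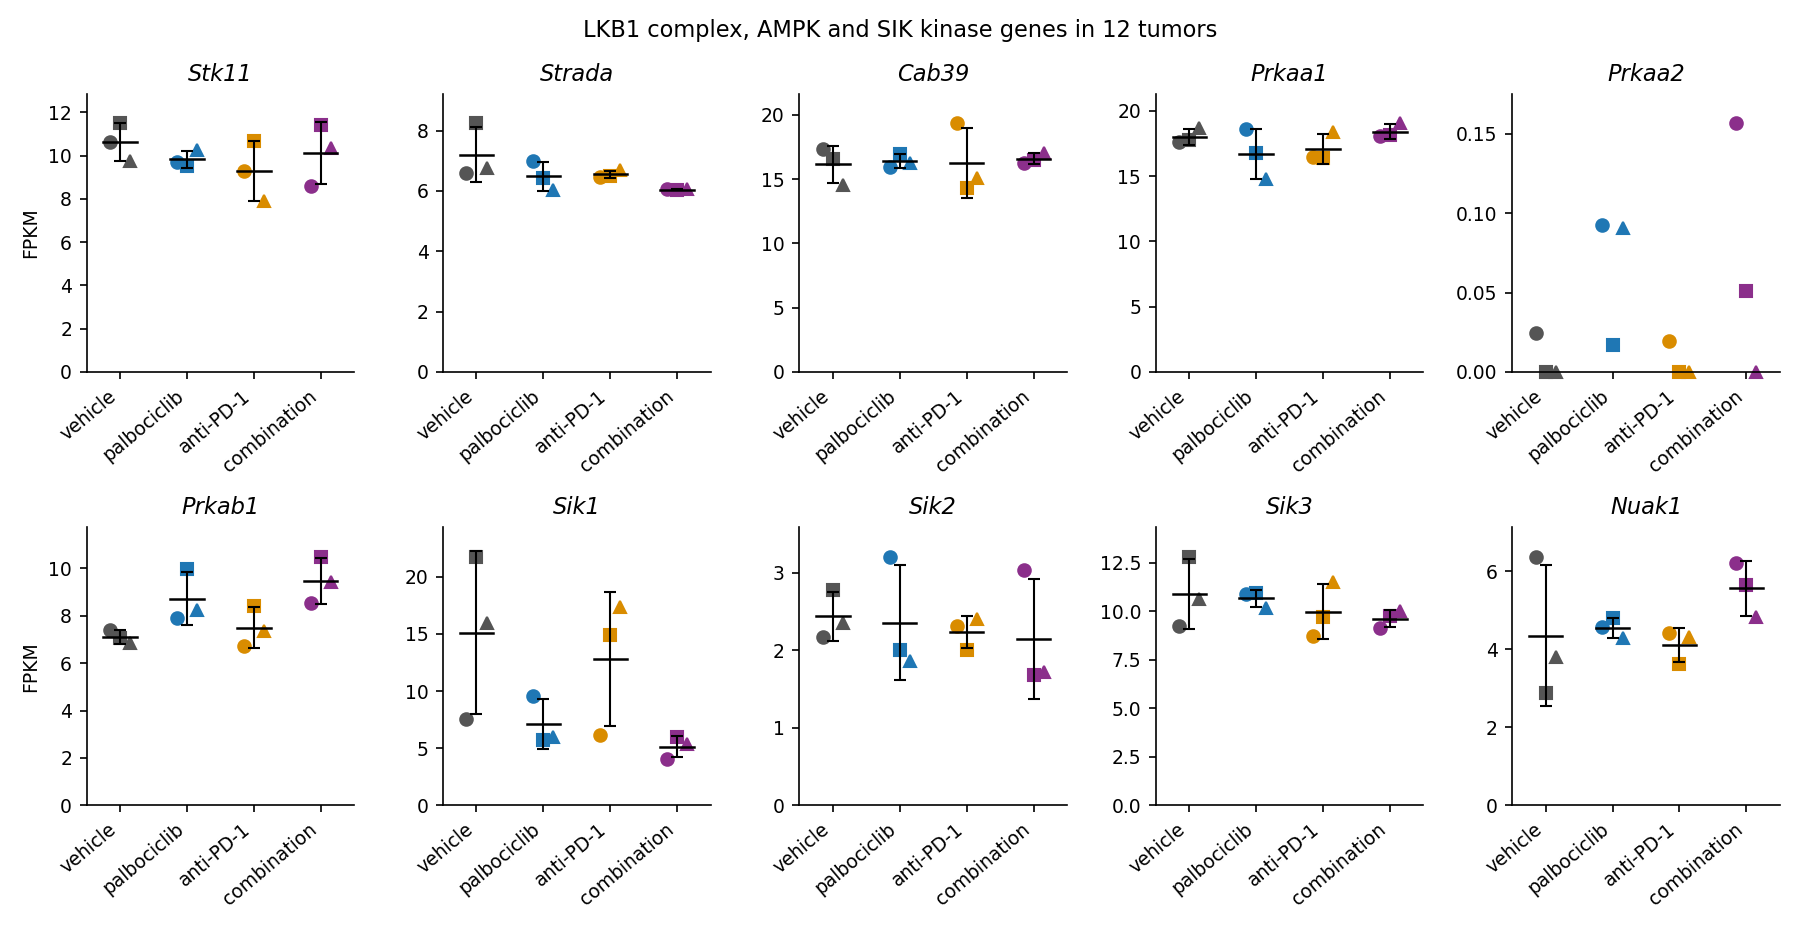
FPKM (y axis, linear from 0) of the 10 genes in each tumor, by arm (x axis), with circles, squares and triangles for tumors 1, 2 and 3 of an arm, which are not matched between arms. Lines give the mean and bars the SD (n = 3), left out for Prkaa2, which lies at or below 0.157 FPKM. Sik1 spans 4.10 to 21.8 FPKM, while Stk11, Cab39 and Prkaa1 keep a narrow range.

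Stk11 was transcribed in every tumor. Its level was 10.6, 11.5 and 9.74 FPKM with vehicle, 9.72, 9.51 and 10.3 with palbociclib, 9.28, 10.7 and 7.90 under anti-PD-1, and 8.60, 11.4 and 10.3 with the combination. The arms overlapped, and the lowest and highest tumors were anti-PD-1 3 and vehicle 2. The arm means ran from vehicle (10.6 ± 0.874 FPKM, SD, n = 3) through the combination (10.1 ± 1.42) and palbociclib (9.83 ± 0.390) to anti-PD-1 (9.29 ± 1.39), and no neighbours in this order differed beyond their spread. The palbociclib effect on Stk11 was 0.01 on the log2 scale (SE 0.09, 95% interval -0.20 to 0.21, limma adjusted p = 0.972). The anti-PD-1 effect was -0.08 (SE 0.09, adjusted p = 0.839). These levels do not check the knockdown, because every arm carried it and RNA of host cells adds to the same gene. Stk11 lies on GRCm38 chromosome 10 from 80115803 to 80130682, plus strand, in GENCODE M21, and 232 of its exon bases (5.1%) are shared with Cbarp on the opposite strand. Whether the counting used strand is not given in the sources used here, and Cbarp itself averaged 0.743 FPKM.

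Strada encodes the pseudokinase that switches LKB1 on. It was read at 6.60, 8.24 and 6.76 FPKM with vehicle, 6.98, 6.43 and 6.03 with palbociclib, 6.47, 6.49 and 6.68 under anti-PD-1, and 6.06, 6.03 and 6.05 with the combination. The 3 combination tumors lay below all 3 vehicle tumors and all 3 anti-PD-1 tumors, a separation that 11.6% and 7.49% of genes tested showed in the same direction. Against vehicle the combination differed by -0.24 (SE 0.10, unadjusted p = 0.0401, limma adjusted p = 0.281), so the difference did not pass. The arm means were 7.20 ± 0.906 and 6.04 ± 0.0157 FPKM (SD, n = 3). Strada shares 158 exon bases (2.8%) with Ccdc47 on the same strand, which averaged 32.6 FPKM, and fragments in that stretch can be given to either gene. Strada made up 76.7% to 82.4% of the summed FPKM of Strada and its paralog Stradb.

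Cab39 encodes the scaffold MO25α. Its level was 17.3, 16.6 and 14.6 FPKM with vehicle, 15.9, 17.0 and 16.2 with palbociclib, 19.3, 14.3 and 15.1 under anti-PD-1, and 16.2, 16.5 and 17.0 with the combination. The highest and the lowest tumor were both in the anti-PD-1 arm. The palbociclib effect was 0.03 (95% interval -0.15 to 0.21, limma adjusted p = 0.843). The paralog Cab39l, which encodes MO25β, supplied 35.8% to 45.0% of the summed MO25 FPKM, so both scaffold genes were transcribed.

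The catalytic AMPK subunit came from Prkaa1 in every tumor. Prkaa1 was read at 17.6, 17.7 and 18.7 FPKM with vehicle, 18.6, 16.8 and 14.8 with palbociclib, 16.5, 16.4 and 18.4 under anti-PD-1, and 18.1, 18.1 and 19.0 with the combination. It had the highest mean of the 10 genes and the lowest coefficient of variation, 7.08% over 12 tumors. Its palbociclib effect was -0.00 (95% interval -0.15 to 0.15, limma adjusted p = 0.986). Prkaa1 supplied at least 99.1% of the summed FPKM of the 2 α subunit genes.

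Prkaa2, which encodes the α2 subunit known for its use in skeletal muscle, was barely seen. It was listed at 0.0243, 0 and 0 FPKM with vehicle, 0.0929, 0.0169 and 0.0909 with palbociclib, 0.0197, 0 and 0 under anti-PD-1, and 0.157, 0.0512 and 0 with the combination. The fragments behind these values were estimated at 3, 0 and 0, then 12, 2 and 12, then 3, 0 and 0, then 20, 7 and 0, or 59 in all. A count of 0 allows up to 3 fragments, worth 0.0186 to 0.0253 FPKM depending on the library, for counting error only. For some genes an exact 0 in these tables can also be a failed estimate. The mitochondrial gene mt-Co1, chosen after its values were seen, is listed at 0 in vehicle 3 and palbociclib 2 and at 6467 FPKM or more elsewhere. Whether a 0 of Prkaa2, which is not a mitochondrial gene, can be of that kind was not tested. In the fit over the 22912 genes with any FPKM above 0, the palbociclib effect on Prkaa2 was 0.58 (SE 0.22, limma adjusted p = 0.243).

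The tumors with the most Prkaa2 also held the most fat or muscle RNA. Combination 1 and palbociclib 1, with 20 and 12 fragments, had 853 and 349 summed FPKM of adipocyte markers. Palbociclib 3 and combination 2, with 12 and 7 fragments, had 191 and 168 summed FPKM of skeletal muscle markers. In the 5 tumors at 0 the adipocyte markers summed to 0.134 FPKM or less and the muscle markers to between 0.788 and 7.09. The 2 genes whose levels were ordered most like Prkaa2 over the 12 tumors were Thrsp and Pck1, with Spearman rho of 0.98 and 0.97 among 11187 genes, as a description. The part of host tissue in the Prkaa2 values was not tested.

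**Figure D2:**
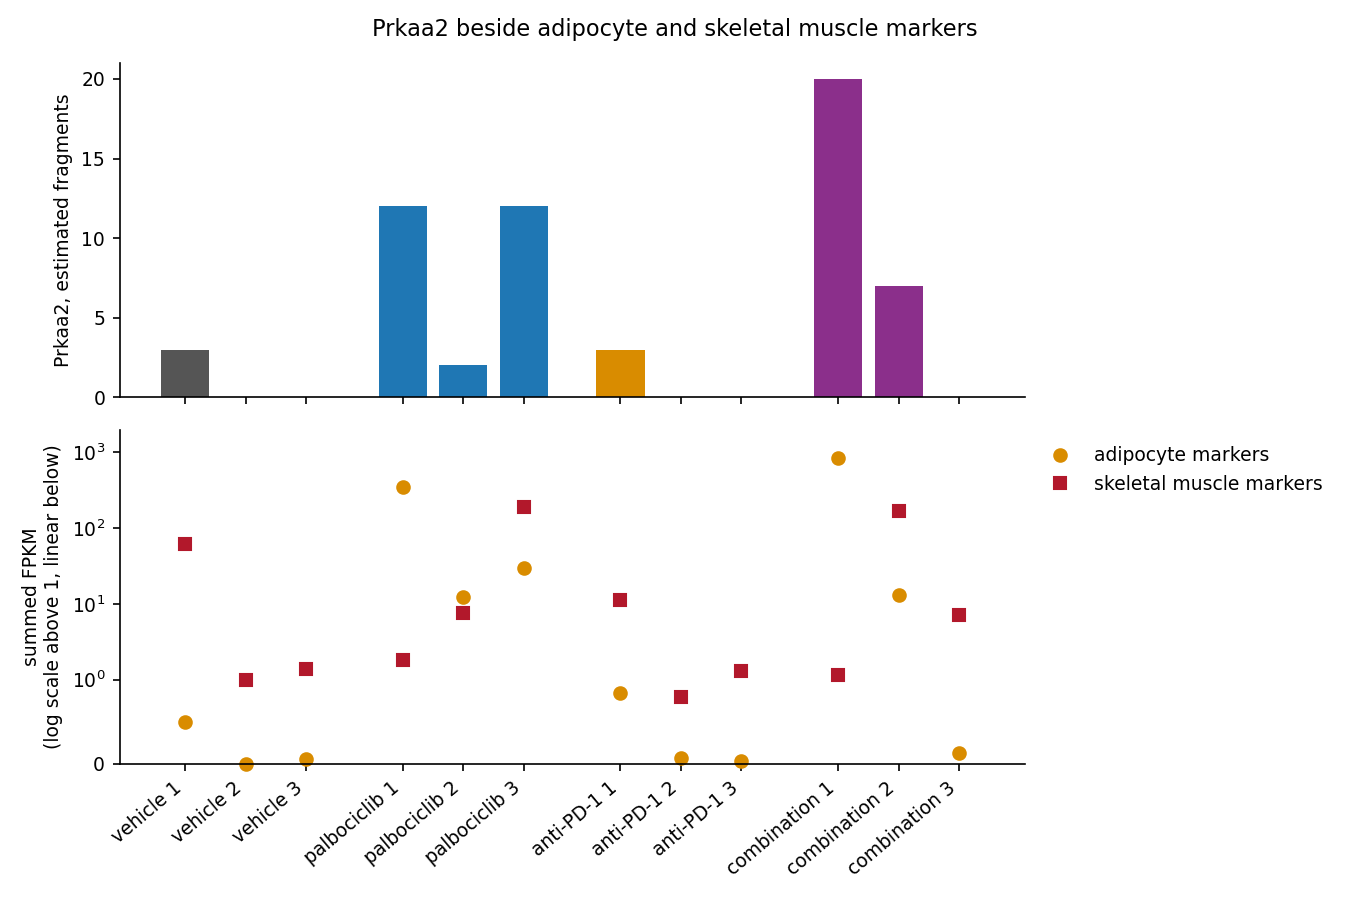
Estimated Prkaa2 fragments in each tumor (upper panel, linear scale, bars from 0, coloured by arm) and summed FPKM of 6 adipocyte markers (circles) and 8 skeletal muscle markers (squares) in the same tumors (lower panel, log scale above 1 and linear below). Bars above 3 fragments occur in palbociclib 1 and 3 and combination 1 and 2, which have 349 or 853 summed FPKM of adipocyte markers, or 191 or 168 of muscle markers.

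Prkab1, the gene of the scaffolding β1 subunit (GRCm38 chromosome 5, 116013586 to 116024508, minus strand), had a higher mean with palbociclib in both pairs of arms. It was read at 7.39, 7.08 and 6.83 FPKM with vehicle and at 7.89, 9.98 and 8.25 with palbociclib. With anti-PD-1 it was read at 6.70, 8.40 and 7.36, and with the combination at 8.54, 10.5 and 9.40. Each palbociclib tumor lay above each vehicle tumor and each combination tumor above each anti-PD-1 tumor, which 1.95% of genes tested showed in the same direction. The palbociclib effect was 0.31 (SE 0.09, 95% interval 0.12 to 0.50, 1.24-fold on the scale of FPKM + 0.1, unadjusted p = 0.00449), and it did not pass (limma adjusted p = 0.112). The combination differed from vehicle by 0.41 (SE 0.12, adjusted p = 0.197). The effect with and without anti-PD-1 differed by 0.05 (SE 0.17, adjusted p = 0.985). Pan-leukocyte markers summed to 68.4 to 91.1 FPKM with palbociclib and to 42.4 to 60.8 with vehicle, to 37.8 to 63.0 under anti-PD-1 and to 41.8 to 88.5 under the combination. Combination 2, the tumor with the most Prkab1, had 41.8 FPKM of these markers, and the part of leukocytes in the Prkab1 values was not tested.

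The other β gene, Prkab2, ran the other way without passing the test. Prkab2 was read at 1.29, 2.44 and 2.59 FPKM with vehicle, 1.86, 1.82 and 1.49 with palbociclib, 1.47, 2.13 and 2.33 under anti-PD-1, and 1.39, 1.77 and 1.26 with the combination, and its palbociclib effect was -0.31 (SE 0.19, limma adjusted p = 0.365). The share of Prkab1 in the summed β FPKM was 77.3% ± 6.81 with vehicle, 83.4% ± 2.15 with palbociclib, 79.3% ± 3.06 under anti-PD-1 and 86.6% ± 1.42 with the combination (SD, n = 3). The combination tumors, at 85.6% to 88.2%, all lay above the anti-PD-1 tumors, while vehicle 1, at 85.1%, lay above every palbociclib tumor. Among γ subunits Prkag1 supplied 87.6% to 92.8%.

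Sik1, on GRCm38 chromosome 17 from 31844250 to 31855804, minus strand, varied most of the tested members, with a coefficient of variation of 58.6%. Its product is an inducible kinase whose own gene is a CREB target. It was read at 7.57, 21.8 and 16.0 FPKM with vehicle and at 9.61, 5.72 and 5.94 with palbociclib. With anti-PD-1 it was read at 6.16, 14.9 and 17.3, and with the combination at 4.10, 5.94 and 5.40. Vehicle 2 and 3 and anti-PD-1 2 and 3 were high, while vehicle 1 and anti-PD-1 1 lay within the range of the 6 tumors given palbociclib. The combination tumors lay below all anti-PD-1 tumors (7.49% of genes tested) and all vehicle tumors (11.6%), but the palbociclib arm overlapped the vehicle arm.

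The palbociclib effect on Sik1 was -1.09 (SE 0.30, 95% interval -1.76 to -0.42), or 0.470 of the level without palbociclib on the scale of FPKM + 0.1. Its unadjusted p was 0.00424 and its limma adjusted p was 0.111, so it did not pass. The combination differed from vehicle by -1.42 (SE 0.43, adjusted p = 0.196) and palbociclib alone by -0.99 (SE 0.43, adjusted p = 0.351). The anti-PD-1 effect was -0.34 (SE 0.30, adjusted p = 0.801), and the interaction was -0.19 (SE 0.61, adjusted p = 0.984). With single tumors left out the effect ranged from -1.32 to -0.93. It was -1.30 without vehicle 1 and -1.32 without anti-PD-1 1, and passed in these 2 of 12 fits (adjusted p = 0.0356 and 0.0327), in which the count over all genes was 692 and 758 instead of 48. These 2 are the only tumors without palbociclib outside the 4 highest in the hypoxia genes described below. Leaving either out thus left its arm only with tumors high in those genes, so treatment and hypoxia genes cannot be told apart in that arm. The effect on Sik1 was -1.39 and passed (adjusted p = 0.0328) without the tumor of each arm with the most summed muscle, fat and skin markers, namely vehicle 1 (62.8 FPKM), palbociclib 2 (388.6), anti-PD-1 1 (12.1) and combination 1 (856). That fit left in palbociclib 1 (351), palbociclib 3 (222) and combination 2 (181), and called 579 genes in all. Its only tumors without palbociclib were vehicle 2 and 3 and anti-PD-1 2 and 3. These are the 4 highest in Sik1 and in the hypoxia genes described below, so treatment and hypoxia genes cannot be told apart in it.

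**Figure D3:**
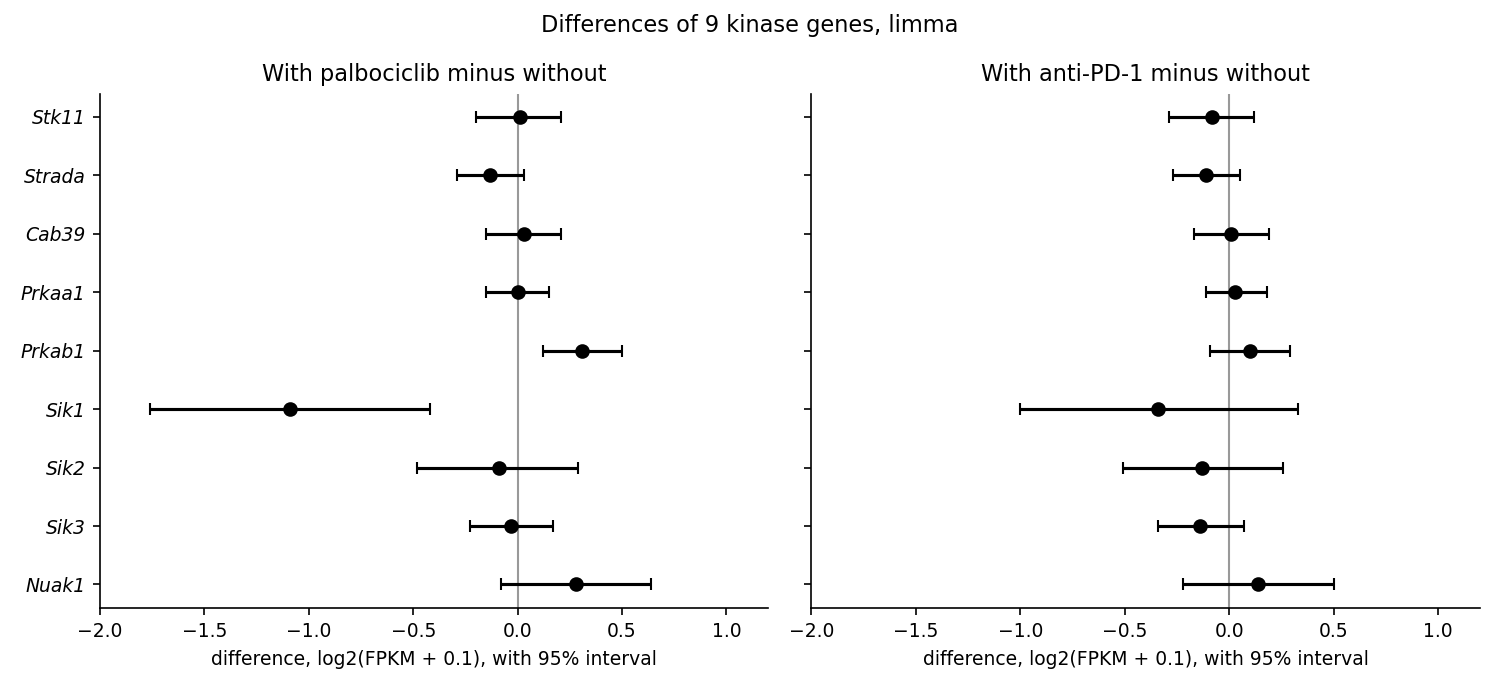
Palbociclib effect (left) and anti-PD-1 effect (right) on the 9 tested genes, as differences in log2(FPKM + 0.1) on a linear axis, with points for the limma estimate and bars for its 95% interval from 12 tumors. On the left only the intervals of Sik1 (-1.76 to -0.42) and Prkab1 (0.12 to 0.50) leave out 0, before adjustment for 15350 genes, and on the right none does.

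The 4 tumors high in Sik1 were also the 4 highest in hypoxia genes, a list of 12 targets of low oxygen such as Slc2a1, the glucose transporter GLUT1, that was drawn up after these values were seen. Summed FPKM of the list was 2278 in vehicle 2, 2114 in vehicle 3, 2205 in anti-PD-1 2 and 1962 in anti-PD-1 3, and lay between 854 and 1418 in the other 8 tumors. Slc2a1 was at 150 to 174 FPKM in these 4 tumors and at 27.2 to 63.6 in the others. Among the 8 others, Sik1 was at 7.57 and 6.16 FPKM in vehicle 1 and anti-PD-1 1 and at 4.10 to 9.61 in the 6 tumors given palbociclib, so the treated and untreated values overlapped there. With the mean log2 level of the 12 hypoxia genes as a covariate, the palbociclib effect on Sik1 was -0.61 (limma adjusted p = 0.231). Neutrophil markers were also at their highest in vehicle 3 (133 summed FPKM), anti-PD-1 2 (57.0) and anti-PD-1 3 (57.1), but were at 14.6 in vehicle 2, the tumor with the most Sik1. The tumors fall into separate clusters, so no correlation of Sik1 over all tumors is given. The part of hypoxia and neutrophils in the Sik1 values was not tested further.

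**Figure D4:**
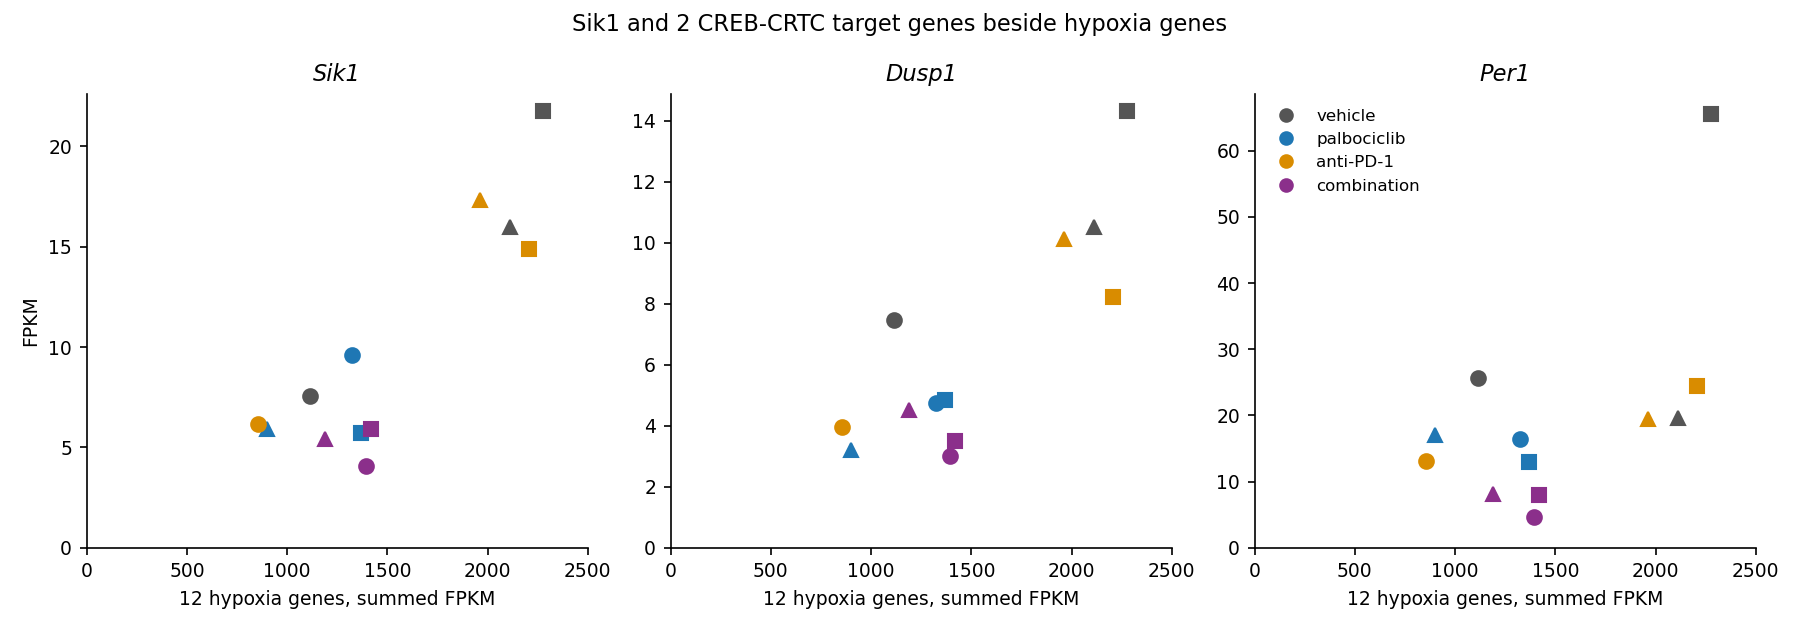
FPKM of Sik1, Dusp1 and Per1 (y axes, linear from 0) against the summed FPKM of 12 hypoxia genes (x axis, linear) in the 12 tumors, coloured by arm, with circles, squares and triangles for tumors 1, 2 and 3. Vehicle 2 and 3 and anti-PD-1 2 and 3 stand apart at 1962 or more on the x axis, and hold the 4 highest values of Sik1 and of Dusp1.

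Sik3, the most evenly transcribed SIK gene, was read at 9.23, 12.8 and 10.6 FPKM with vehicle, 10.9, 10.9 and 10.2 with palbociclib, 8.72, 9.70 and 11.5 under anti-PD-1, and 9.13, 9.75 and 9.99 with the combination. Its palbociclib effect was -0.03 (95% interval -0.23 to 0.17, limma adjusted p = 0.880). Sik2 was read at 2.17, 2.78 and 2.36 FPKM with vehicle, 3.21, 2.003 and 1.86 with palbociclib, 2.31, 2.01 and 2.41 under anti-PD-1, and 3.03, 1.68 and 1.72 with the combination. Its 2 highest tumors, palbociclib 1 and combination 1, were the 2 with the most adipocyte markers, and the part of fat in those values was not tested. The palbociclib effect on Sik2 was -0.09 (95% interval -0.48 to 0.29, adjusted p = 0.781). Sik2 shares 1429 exon bases (15%) with Ppp2r1b on the opposite strand, which averaged 6.17 FPKM, so without strand the reads of the 2 genes cannot be told apart in that stretch.

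The shares of the SIK genes add up to a fixed total, so a higher share of Sik1 leaves less for Sik2 and Sik3 at any level of those genes. The level of Sik3 itself was 9.7 to 12.8 FPKM in vehicle 2 and 3 and anti-PD-1 2 and 3. In the other 8 tumors Sik3 was at 8.72 to 10.9 FPKM, so the ranges overlapped. Sik1 made up 39.9%, 58.3% and 55.2% of the summed SIK FPKM with vehicle, 40.5%, 30.7% and 33.1% with palbociclib, 35.9%, 56.0% and 55.5% under anti-PD-1, and 25.2%, 34.2% and 31.6% with the combination. Sik1 was the leading SIK transcript in vehicle 2 and 3 and in anti-PD-1 2 and 3, and Sik3 led in the other 8 tumors. Sik2 supplied 7.44% to 18.7%. These shares are on a per-length scale and describe RNA, not protein.

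**Figure D5:**
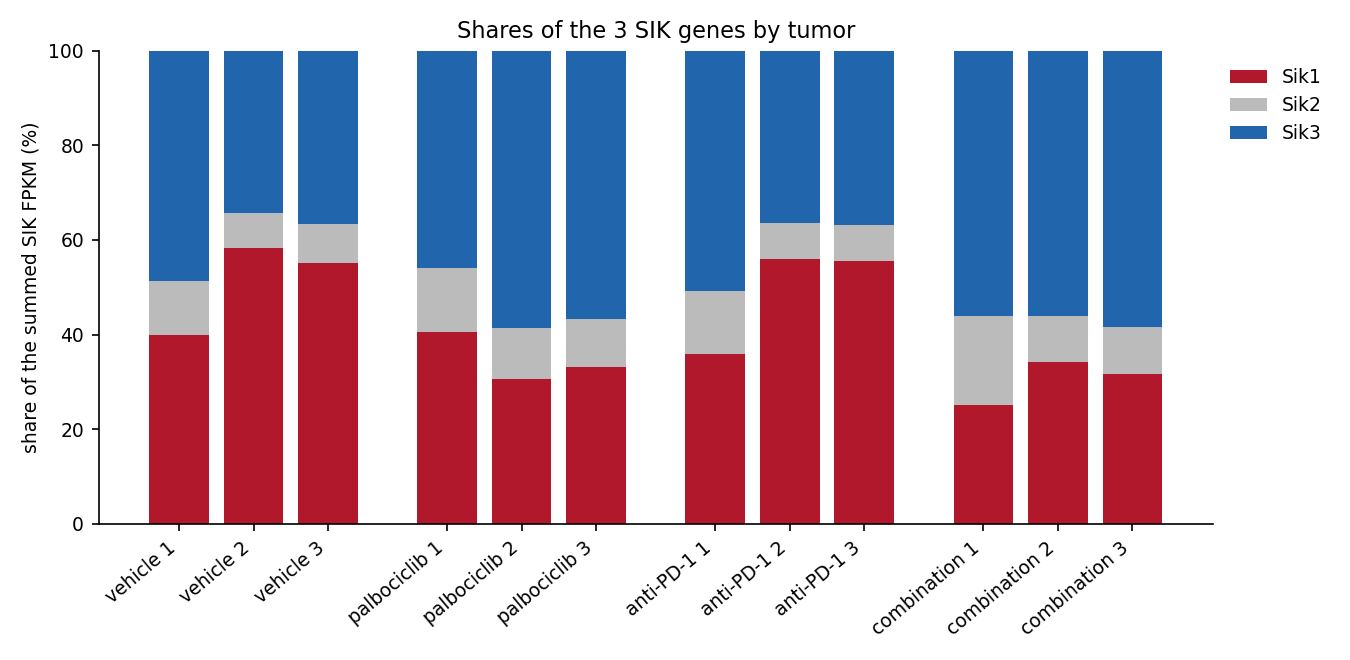
Share of Sik1, Sik2 and Sik3 in their summed FPKM (y axis, percent, stacked to 100) in each of the 12 tumors, grouped by arm. Sik1 takes 55.2% or more in vehicle 2 and 3 and anti-PD-1 2 and 3, and 40.5% or less in the other 8 tumors.

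Nuak1 encodes an AMPK-related kinase that acts on myosin phosphatase. It was read at 6.38, 2.87 and 3.81 FPKM with vehicle, 4.59, 4.80 and 4.29 with palbociclib, 4.43, 3.62 and 4.31 under anti-PD-1, and 6.23, 5.65 and 4.83 with the combination. The combination tumors all lay above the anti-PD-1 tumors, as for 11.4% of genes tested, but vehicle 1 lay above them all. The palbociclib effect was 0.28 (SE 0.16, limma adjusted p = 0.346). Combination minus anti-PD-1 was 0.42 (SE 0.23, adjusted p = 0.485). Vehicle 1 and combination 1, the 2 tumors with the most Nuak1, were at 136 and 171 summed FPKM of fibroblast markers. Palbociclib 3 was also at 136 but had 4.29 FPKM of Nuak1, and the other 9 tumors lay between 29.3 and 65.6. In the 4 tumors highest in hypoxia genes Nuak1 was at 2.87 to 4.31 FPKM, and in the other 8 at 4.29 to 6.38. The part of fibroblasts and of hypoxia in the Nuak1 values was not tested.

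Ordered by mean FPKM over the 12 tumors, the genes ran from Prkaa1 (17.6 ± 1.24, SD, n = 12) through Cab39 (16.3 ± 1.35), Sik3 (10.3 ± 1.14), Sik1 (10.04 ± 5.88), Stk11 (9.96 ± 1.07), Prkab1 (8.19 ± 1.24), Strada (6.57 ± 0.615), Nuak1 (4.65 ± 1.03) and Sik2 (2.30 ± 0.496) to Prkaa2. Prkaa1 and Cab39 overlapped, with Prkaa1 above in 9 of 12 tumors. Sik3, Sik1 and Stk11 could not be ordered beyond their spread: Sik3 was above Sik1 in 8 of 12 tumors and Sik1 above Stk11 in 4. Cab39 was above Sik3, Nuak1 above Sik2 and Sik2 above Prkaa2 in all 12.

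For 2 further members, the genes most like each in the order of the 12 tumors are given as a description, with no statement on shared function. They were Hist1h2bc, Ptdss2 and Palm for Stk11 (Spearman rho 0.93, 0.92 and 0.92) and Taf13, Donson and Rnf168 for Nuak1 (0.92 each), among 11186 genes.

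The wider pathway was read from 49 further genes in 6 lists, of which 45 were tested and 0 were called for the palbociclib effect. At an unadjusted p under 0.05, 2 of the 45 were higher and 9 lower, against 14.1% and 6.44% of all genes. Among other subunits of the LKB1 complex and AMPK, 5 of 6 were tested, with a median of 0.05 against 0.06 for all genes. Cab39l differed by 0.20 (SE 0.08, limma adjusted p = 0.217), Prkag1 by 0.05 and Prkag2 by 0.11. The 3 other kinases upstream of AMPK, Map3k7, Camkk2 and Camkk1, differed by 0.07, 0.14 and 0.14, with adjusted p of 0.641, 0.454 and 0.688.

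Of the other AMPK-related kinases 8 of 9 were tested. At an unadjusted p under 0.05, 1 was higher and 1 lower, against 14.1% and 6.44% of all genes. Melk, an AMPK-related kinase that is expressed in dividing cells and that LKB1 does not activate, was at 14.0, 10.4 and 10.6 FPKM with vehicle, 16.9, 16.8 and 18.9 with palbociclib, 21.5, 12.3 and 10.9 under anti-PD-1, and 18.9, 19.2 and 17.1 with the combination. Its palbociclib effect was 0.48 (SE 0.15, limma adjusted p = 0.133), and anti-PD-1 1, the tumor with the most Melk, lay above all treated tumors. Without anti-PD-1 1 the effect on Melk was 0.63 and passed (adjusted p = 0.0208), in a fit that called 758 of 15350 genes instead of 48. That fit left the anti-PD-1 arm only with tumors high in hypoxia genes. Melk was lowest, at 10.4 to 12.3 FPKM, in the 4 tumors highest in hypoxia genes. Vehicle 1 and anti-PD-1 1 lay on either side of the treated tumors, and the part of hypoxia in the Melk values was not tested. The microtubule affinity kinases Mark3, Mark4 and Mark2 differed by -0.01, -0.11 and -0.12, with adjusted p of 0.476 or more.

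Among 12 genes for AMPK substrates, 0 had a higher and 2 a lower level at an unadjusted p under 0.05. The shares over all genes were 14.1% and 6.44%. The median of the list was -0.01. Txnip, which restrains glucose uptake, was at 33.9, 60.2 and 21.2 FPKM with vehicle and 47.1, 50.7 and 49.7 with palbociclib. It was at 21.7, 22.2 and 25.5 under anti-PD-1 and 22.4, 24.5 and 29.8 with the combination. Its anti-PD-1 effect was -0.78 (SE 0.20, limma adjusted p = 0.723), which did not pass. The palbociclib effect on Txnip was 0.31 (SE 0.20, adjusted p = 0.395). Tsc2, a brake on mTORC1, differed by 0.04, and Fnip1, a partner of folliculin, by -0.33 (SE 0.15, adjusted p = 0.239). Regulation of these proteins by AMPK is by phosphorylation, which RNA does not measure.

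The genes of SIK substrates had a median of -0.16 over 7 genes. At an unadjusted p under 0.05, 2 of them were lower, against 6.44% of all genes. Crtc2, a CREB coactivator, differed by -0.21 (SE 0.08, limma adjusted p = 0.191) and Crtc3 by -0.16 (SE 0.09, adjusted p = 0.307). The class IIa deacetylase genes Hdac7 and Hdac4 differed by -0.45 (SE 0.20, adjusted p = 0.236) and -0.16 (SE 0.16, adjusted p = 0.565). Without anti-PD-1 1, Hdac7 differed by -0.63 and passed (adjusted p = 0.0477), in a fit that called 758 of 15350 genes instead of 48. That fit left the anti-PD-1 arm only with tumors high in hypoxia genes. Hdac7 was highest, at 5.68 to 9.17 FPKM, in the 4 tumors highest in hypoxia genes. Vehicle 1 and anti-PD-1 1 were at 5.61 and 3.70, and the treated tumors at 3.997 to 5.375. The part of hypoxia in the Hdac7 values was not tested.

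The CREB-CRTC target genes had the lowest median of the 6 lists, -0.28 over the 10 tested of 12. At an unadjusted p under 0.05, 0 were higher and 4 lower, against 14.1% and 6.44% of all genes. Cps1, a urea cycle gene of the liver, was listed at 0 in every tumor. Dusp1, a phosphatase gene of the early response, was at 7.46, 14.3 and 10.5 FPKM with vehicle, 4.76, 4.84 and 3.22 with palbociclib, 3.96, 8.22 and 10.1 under anti-PD-1, and 3.00, 3.49 and 4.52 with the combination. Vehicle and palbociclib did not overlap (lower for 6.47% of genes tested), while anti-PD-1 1 lay within the combination arm. Its palbociclib effect was -1.10 (SE 0.24, limma adjusted p = 0.0737), which did not pass. Without vehicle 1 and without anti-PD-1 1 it was -1.22 and -1.30 and passed (adjusted p = 0.0325 and 0.0208). These fits called 692 and 758 of 15350 genes instead of 48. They left the vehicle or the anti-PD-1 arm only with tumors high in hypoxia genes.

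Per1, a clock gene with CREB-driven induction, was at 25.6, 65.6 and 19.6 FPKM with vehicle and at 16.4, 12.9 and 17.0 with palbociclib. With anti-PD-1 it was at 13.2, 24.4 and 19.4, and with the combination at 4.72, 7.95 and 8.18. The arms with palbociclib lay below their counterparts without it in both pairs, as for 0.879% of genes tested. Its palbociclib effect was -1.25 (SE 0.28, limma adjusted p = 0.0802). Without vehicle 1 and without anti-PD-1 1 it was -1.33 and -1.37 and passed (adjusted p = 0.0421 and 0.0363), in the same fits that called 692 and 758 genes instead of 48. In those fits the vehicle or the anti-PD-1 arm kept only tumors high in hypoxia genes. The nuclear receptor gene Nr4a1 differed by -0.41 (SE 0.14, adjusted p = 0.149) and Fos by -0.49 (SE 0.31, adjusted p = 0.386). Dusp1 had its 4 highest values in the 4 tumors highest in Sik1 and hypoxia genes. With the hypoxia genes as a covariate, the effects were -0.73 for Dusp1 and -1.03 for Per1 (adjusted p = 0.135 and 0.253), and what these genes owe to hypoxia was not tested further.

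Anti-PD-1 moved no member past the threshold. The anti-PD-1 effect lay between -0.34 for Sik1 and 0.14 for Nuak1, 0 of 9 members had an unadjusted p under 0.05 against 6.77% of all genes, and the smallest adjusted p was 0.741, for Strada. Adding anti-PD-1 to palbociclib gave differences from -0.43 (Sik1) to 0.28 (Nuak1), all with a limma adjusted p of 1. In the interaction the largest value, 0.28 for Nuak1, had an SE of 0.33. With 3 tumors an arm, a palbociclib effect that differed with the antibody was not called for any member, and what size could have been detected was not tested.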

How the data were processed

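RNA of 12 tumors, 3 in each of 4 arms, was read from 1 deposited table per tumor. The values are FPKM as the authors made them, per length and library. The submitters' processing notes name HISAT2 and GRCm38 (mm10). The counting tool, annotation and strand setting are not given in the sources used here. Groups came from the labelled treatment. The entry with the highest mean was kept where a symbol was repeated.

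Of the 22912 genes above 0 in any tumor, the 15350 whose mean reached 0.1 FPKM entered limma 3.58.1 (R 4.3.3) as log2(FPKM + 0.1), through lmFit, contrasts.fit and a trended eBayes, with 1 mean per arm, no covariate and Benjamini-Hochberg adjustment over all genes. Fold changes on this scale understate the change of low genes. The fit was run on simulated data with independent noise for each gene. Those data lack the clusters of tumors seen here, so they do not test the fit under them. Alternatives covered the pseudocount (1 and 0.01), the filter, TPM and quantile scaling, the trend, the replicate block, 2-arm fits and each tumor left out. Positions are from GENCODE M21 and promoters from RefSeq, both on GRCm38. Fragments were estimated from steps of low FPKM values, with Python 3.11.15 and pandas 2.3.3.

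The members and lists were chosen with earlier results of these data known. The hypoxia list, its use as a covariate and the fit without the tumor of each arm highest in host-tissue markers were added after seeing the data. All 10 members were named, then from each list the 4 genes with the highest mean FPKM, and the 3 genes most like Stk11, Prkaa2, Sik1 and Nuak1 with a mean of at least 1 FPKM. Those for Sik1 are left out because its tumors fall into separate clusters. Among the genes this rule names, 2 more are not reported here.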

Additional observations from a re-analysis of the deposited data

How the results depend on the processing

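With 3 tumors an arm and an estimated 14900000 to 20300000 fragments a tumor, the error of Sik1 came from the spread between tumors, and that of Prkaa2 also from few fragments. For the palbociclib effect, the count of members called ranged from 0 to 1 when single tumors were left out, the 1 being Sik1 without vehicle 1 or anti-PD-1 1. Likewise the count of AMPK-related kinases ranged from 0 to 1, of SIK substrates from 0 to 1 and of CREB-CRTC target genes from 0 to 2. These calls also came only without vehicle 1 or anti-PD-1 1, which left that arm only with tumors high in hypoxia genes. Without the tumor of each arm highest in host-tissue markers, 1 member (Sik1), 1 AMPK-related kinase (Melk, 0.70) and 1 CREB-CRTC target gene (Dusp1, -1.40) were called. The tumors without palbociclib left in that fit were the 4 highest in hypoxia genes. Under every other alternative run on all 8 comparisons, and in the 2-arm fits of the 5 pairwise comparisons, 0 members were called, and the palbociclib effect on Sik1 had an adjusted p of 0.095 to 0.256.

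The count over all genes for the palbociclib effect, 48, was 129 with the replicate block, 11 over all genes above 0 FPKM, 0 without the trend, 0 with the hypoxia covariate, 579 without the tumor of each arm highest in host-tissue markers, and 0 to 758 with 1 tumor left out. It was 692 without vehicle 1, 758 without anti-PD-1 1 and 264 without combination 2, and 10 or less without any other tumor. For palbociclib against vehicle, 22 became 34 on TPM, 1 under quantile scaling, 6 without the trend, 51 with the block, 0 in the 2-arm fit, 3 with the covariate, and 1 to 46 with 1 tumor left out. For the combination against vehicle, 2 became 0 to 5 over the alternatives, and for the anti-PD-1 effect 0 became 1 at a mean of at least 1 FPKM and 3 over all genes above 0 FPKM, and ranged from 0 to 1 with 1 tumor left out (1 without palbociclib 2).

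Over all 4 arms, replicate numbers did not pair the tumors: same-numbered tumors correlated at -0.21 to 0.45 (median 0.03), 7 of 18 pairs were over 0.1, and 6 of 12 tumors correlated best with their own number. In vehicle and anti-PD-1 alone all 3 pairs were over 0.1 (0.453, 0.128 and 0.247), and with the block 0 members were called between these arms. With the replicate block, Sik1 stayed at -1.09 (adjusted p = 0.095), Prkab1 at 0.31 (0.0863), and 0 members were called.

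Signs turned only for effects near 0. On TPM Stk11 was at -0.01. Under quantile scaling Stk11 was at -0.05, Cab39 at -0.02 and Tsc2 at -0.02. With the hypoxia covariate Cab39 was at -0.06, Prkaa1 at 0.04, Sik3 at 0.08, Prkag1 at -0.04, Prkag2 at -0.02, Map3k7 at -0.02 and Camkk1 at -0.07, and without the tumor of each arm highest in host-tissue markers Mark3 was at 0.06. With 1 tumor left out, Stk11 ranged from -0.05 to 0.06, Cab39 from -0.01 to 0.10, Prkaa1 from -0.04 to 0.04, Sik3 from -0.09 to 0.03 and Mark3 from -0.04 to 0.03. The cause of these shifts was not tested.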
